A study of Mus musculus with 30 samples.

Results

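The cytochrome P450 genes of families 1 to 4 were examined in 2 mouse tissues, kidney and the gastrocnemius muscle, under a CD, a WD and a WD with CHP treatment. Every symbol of the form Cyp, a family number from 1 to 4, a subfamily letter and a gene number was taken from the gene name columns, apart from 2 Cyp4a genes that the choice of members left out. This gave 73 genes, the same 73 in both tables, of 54838 genes listed for kidney and 55487 for gastrocnemius. A further 6 P450 genes of these families carry a symbol of another form and were not counted as members. All 73 were found as protein-coding genes in GENCODE M21 (GRCm38).

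The animals were wild-type male C57BL/6J mice, moved to thermoneutral housing (30 to 32 °C) at 6 weeks of age. From Week 7 the CD group received the chow diet with water, the WD group the western diet with water, and the WD + CHP group the western diet with CHP, the cyclic dipeptide of histidine and proline. Gavage with CHP at a dose of 20 mg/kg took place 3 times each week, and the animals were killed at Week 24, 3 h after food was removed. There were 5 libraries per group and tissue, 30 in all, and no group received the CD with CHP, so the WD + CHP vs. CD comparison joins diet and compound. It is not stated whether the same animals gave both tissues, and p-values measure the spread between these libraries. The labels name liver as the tissue extracted, for both tissues, so markers were checked. The summed level of 12 proximal tubule markers was 30200 to 38100 CPM (counts scaled to the library total) in the kidney libraries and 4.63 to 9.23 CPM in gastrocnemius, and 12 fast muscle fibre markers summed to 18.0 to 29.4 and 196000 to 261000 CPM, respectively. In bulk tissue, fewer cells of a type and less RNA per cell cannot be told apart.

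P450 enzymes of these families are haem proteins of the endoplasmic reticulum that insert an oxygen atom into lipophilic substrates, with electrons passed on by P450 oxidoreductase. Family 1 enzymes are induced through the aryl hydrocarbon receptor and families 2 and 3 take up most drugs and many steroids, whereas family 4 enzymes hydroxylate fatty acids and eicosanoids. In the kidney, mainly in the proximal tubule, some Cyp2j and Cyp2c enzymes turn arachidonic acid into epoxyeicosatrienoic acids, and Cyp4 enzymes into hydroxylated products that act on salt transport and vascular tone. Skeletal muscle holds little P450.

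The members sit largely in gene clusters. The 8 Cyp2j genes lie on chromosome 4, the 15 Cyp2c genes on chromosome 19 and the 7 Cyp3a genes on 1 chromosome. Such clusters hold near copies, and 29 of the 73 members shared over 10% of their 50-base stretches with another gene, among them *Cyp2a4* (38.0%), *Cyp2d9* (21.8%) and *Cyp4a31* (20.6%). Their counts are uncertain, since the counting of shared reads is not given in the sources used here. *Cyp2j7* (2.3%), *Cyp2j9* (0.0%), *Cyp2f2* (0.0%), *Cyp2e1* (3.9%), *Cyp4f17* (3.0%) and *Cyp2s1* (0.0%) shared little.

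Start regions of 4 members are shown because these genes carry the differences described further on. RefSeq (GRCm38.p6) gave promoters for 62 of the 73 members, 69 in all, and *Cyp2j7* and *Cyp4f17* were not among them. Each run is read 5′ to 3′ on the gene's strand, within the 250 bases before the RefSeq start, without the bases that GENCODE places inside the gene. Capitals mark a match to a searched motif on either strand. *Cyp2j9* and *Cyp2f2* hold no TATAAA, the TATA box, in the 250 bases, whereas *Cyp2c38* holds 1 from 31 to 26 bases before its start. *Cyp2e1* holds 1 at the same distance, in the stretch not printed.
Cyp2j9 (chr4:96591579-96591735, minus strand, GCGTG in capitals): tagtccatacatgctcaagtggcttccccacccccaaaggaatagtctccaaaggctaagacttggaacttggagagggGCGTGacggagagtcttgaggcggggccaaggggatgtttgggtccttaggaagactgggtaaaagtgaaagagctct
Cyp2f2 (chr7:27119705-27119908, plus strand, AGGTCA in capitals): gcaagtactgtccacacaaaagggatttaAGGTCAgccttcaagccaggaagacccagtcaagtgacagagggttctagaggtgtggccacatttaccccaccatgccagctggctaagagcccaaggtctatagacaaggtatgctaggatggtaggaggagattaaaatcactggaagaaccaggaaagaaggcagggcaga
Cyp2c38 (chr19:39463076-39463325, minus strand, TATAAA in capitals): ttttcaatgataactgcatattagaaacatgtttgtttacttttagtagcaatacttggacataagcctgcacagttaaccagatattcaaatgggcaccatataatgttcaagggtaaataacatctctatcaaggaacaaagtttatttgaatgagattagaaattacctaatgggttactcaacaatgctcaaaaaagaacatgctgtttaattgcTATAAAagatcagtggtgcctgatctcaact
Cyp2e1 (chr7:140763569-140763738, plus strand, ATTGG, the reverse complement of CCAAT, in capitals): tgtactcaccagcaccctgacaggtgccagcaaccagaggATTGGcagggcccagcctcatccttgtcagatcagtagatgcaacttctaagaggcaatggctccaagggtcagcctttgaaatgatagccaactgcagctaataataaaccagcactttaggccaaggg
TATAAA occurred on either strand in 34.8% of the 69 member promoters and in 12.4% of all 32851 promoters of the table. CCAAT occurred in 42.0% and 33.8%, and GCGTG, the core bound by the aryl hydrocarbon receptor, in 18.8% and 28.2%. The hexamer AGGTCA, bound by nuclear receptors, occurred in 17 of the 69 and 4607 of the 32851. TTGCNCAA, the core bound by C/EBP factors, occurred in 5.8% and 2.6%. Promoters of neighbouring near copies are alike in sequence, so these shares describe the members and were not tested.

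Between 37189192 and 38211422 reads were counted on genes in each kidney library and 50319024 to 53282969 in each gastrocnemius library. The members held 0.907% to 1.11% of the kidney counts and 0.00462% to 0.00741% of the gastrocnemius counts. The filter on low counts of edgeR (minimum count 10, by group) kept 38 of the 73 members in kidney and 16 in gastrocnemius. Of those, 15 passed in both tissues, and 34 members passed in neither. At 0 counts in every library were 3 members in kidney and 17 in gastrocnemius. *Cyp4f39* passed only in gastrocnemius.

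Several libraries stood apart in liver-type members. The 35 kidney members that failed the filter summed to 45.0 CPM in WD replicate 5 and to 5.60 CPM in CD replicate 1, whereas the other 13 kidney libraries held 0.811 to 3.49 CPM. In WD replicate 5, *Cyp3a11*, the main steroid and drug oxidising P450 of mouse liver, had 507 counts, against at most 87 in any other library. *Cyp2c29* had 304 counts there and at most 25 elsewhere, and 18 of the 35 had their single highest count in this library. The 57 gastrocnemius members that failed summed to 11.1 CPM in WD replicate 3, 3.87 CPM in CD replicate 1 and 2.06 CPM in WD replicate 2, and 21 of the 57 were highest in WD replicate 3. *Alb*, the hepatocyte albumin gene, moved with these sums. It was at 424 CPM in kidney WD replicate 5 and 81.4 CPM in CD replicate 1, with a kidney median of 16.6 CPM. In gastrocnemius it was at 48.6 CPM in WD replicate 3, 47.8 CPM in CD replicate 1 and 10.4 CPM in WD replicate 2, with a median of 1.07 CPM. The list of 12 hepatocyte markers ranged from 206 to 376 CPM in kidney CD, 238 to 985 CPM in WD and 257 to 347 CPM in WD + CHP. Of the list, 11 passed the filter in kidney, and *Ahsg* and *Tat* were at 0 in some kidney libraries. In gastrocnemius the list ranged from 0.935 to 71.4, 1.03 to 74.9 and 0.878 to 3.35 CPM in the same order, 6 of 12 passed, and 8 were at 0 in some libraries. For several comparisons, calls or counts of members are therefore also given without these 5 libraries, whose *Alb* was over 4 times the median of their tissue. This alternative was chosen after the data were seen.

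**Figure D1:**
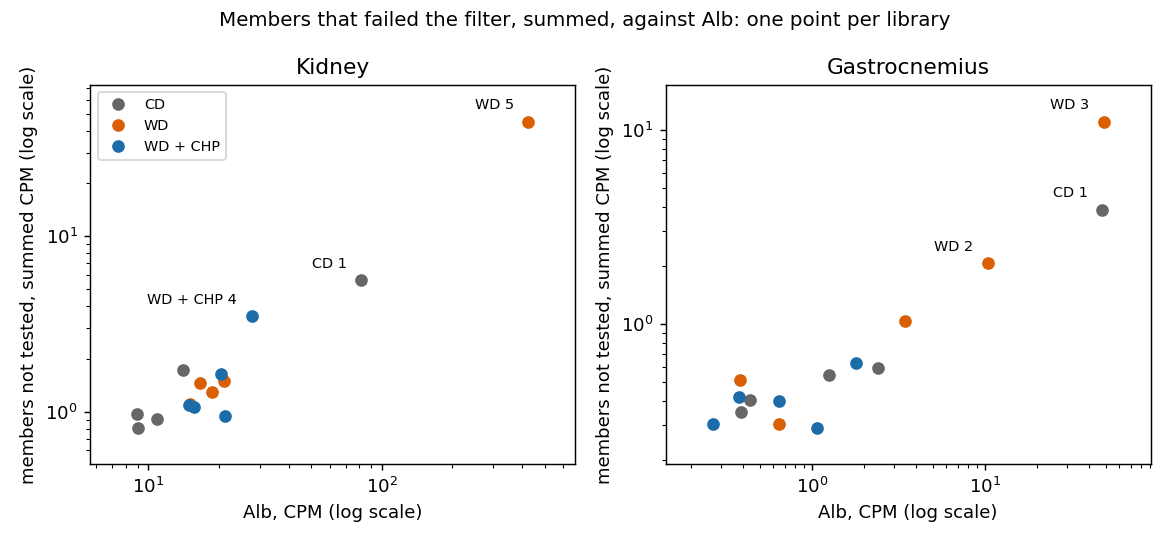
Summed CPM of the members that failed the filter (vertical axis, log scale) against Alb CPM (horizontal axis, log scale), 1 point per library, kidney on the left and gastrocnemius on the right. Kidney WD replicate 5 lies alone at 424 CPM of Alb and 45.0 CPM of these members, and gastrocnemius WD replicate 3 at 48.6 and 11.1 CPM.

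Levels between genes were compared as CPM per kb of exon. In kidney, *Cyp4b1*, which oxidises fatty acids and protoxins, was the highest member at 1730 ± 139 CPM per kb (SD over 15 libraries), and its range of 1460 to 1940 lay above that of every other member. *Cyp2e1*, the ethanol-oxidising P450, followed at 796 ± 116, and *Cyp2j5*, a renal arachidonic acid epoxygenase, at 743 ± 21.3. The ranges of *Cyp2e1* (625 to 996) and *Cyp2j5* (706 to 779) overlapped, so their order is not set by these libraries. *Cyp2a4*, a steroid hydroxylase, stood at 373 ± 46.6, apart from its neighbours on both sides. *Cyp4a31* (170 ± 25.7), *Cyp2j11* (128 ± 9.46), *Cyp2j13* (113 ± 15.5) and *Cyp2d26* (91.2 ± 16.2) came next, each overlapping the next in range. The spread differed among these abundant members. Of these 8, *Cyp2j5* varied least relative to its mean, within 706 to 779 CPM per kb over all 15 libraries, while *Cyp2d26* ranged from 62.7 to 114.

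In gastrocnemius the highest members were *Cyp2d22*, a relative of the human drug oxidising CYP2D6 gene, at 3.69 ± 0.474 CPM per kb (SD over 15 libraries), and *Cyp2e1* at 3.66 ± 2.36. *Cyp2e1* had the widest range, 0.991 to 7.85, and overlapped *Cyp2d22* (3.04 to 4.66). *Cyp4b1* followed at 2.17 ± 0.220, *Cyp4f13* at 1.54 ± 0.127, *Cyp4f17* at 1.11 ± 0.202, *Cyp2u1*, a hydroxylase of long-chain fatty acids, at 1.05 ± 0.136, *Cyp4f39* at 0.724 ± 0.176 and *Cyp2j6* at 0.702 ± 0.0891. *Cyp4b1* lay above *Cyp4f13* in every library, and the other neighbours overlapped. The 2 tables were normalised separately, so the tissue levels are set side by side without a test. The kidney epoxygenase *Cyp2j5* had 43 counts over all gastrocnemius libraries, 25 of them in WD replicate 3.

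**Figure D2:**
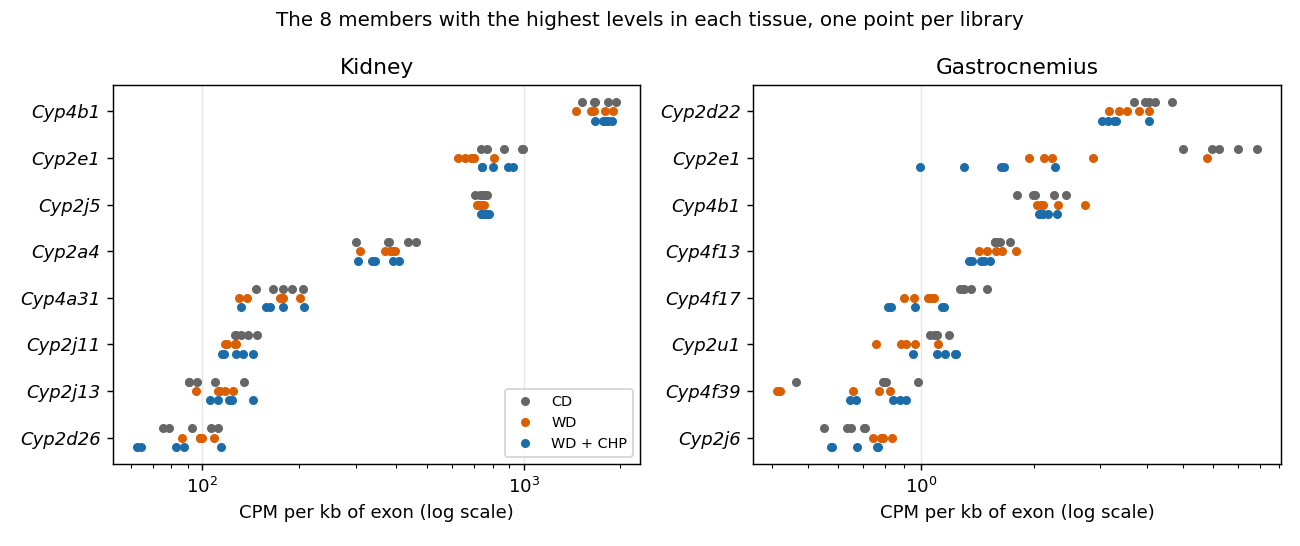
CPM per kb of exon (log scale) of the 8 members with the highest mean in kidney (left) and in gastrocnemius (right), 1 point per library, coloured by group. Cyp4b1 stands clear of the others in kidney at 1460 to 1940, and Cyp2e1 spreads from 0.991 to 7.85 in gastrocnemius, with the CD libraries at its upper end.

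WD vs. CD in kidney asked how the western diet moved these genes. Of the 38 members tested, 5 passed an adjusted p of 0.05 (edgeR quasi-likelihood test, Benjamini-Hochberg adjustment over 17120 genes), or 13.2%, where 9.65% of all genes tested did. *Cyp2j7*, *Cyp2j9*, *Cyp2e1* and *Cyp4f13* fell and *Cyp2c38* rose. Lower calls took 5.03% of all genes. The median log2 fold change of the 38 members was -0.03, against 0.00 for all genes, and the median of its absolute value was 0.24 against 0.10.

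The Cyp2j subfamily had 7 of its 8 members tested, 2 of which fell, and 6 of the 7 log2 fold changes lay below 0. *Cyp2j7* (chr4:96195197-96236659, GRCm38, minus strand) was at 3.82, 2.83, 3.29, 2.73 and 3.43 CPM in the CD libraries and at 1.71, 1.88, 2.19, 2.16 and 1.65 CPM in the WD libraries, in order of replicate number. The WD + CHP libraries held 2.51, 1.97, 2.45, 2.14 and 1.76 CPM. Every CD library lay above every WD and WD + CHP library, and the last 2 groups overlapped. *Cyp2j7* fell by 0.75 ± 0.13 on the log2 scale (SE, n = 5 per group, edgeR adjusted p = 0.00215), on 64 to 146 counts per library in these 2 groups.

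*Cyp2j9* (chr4:96568429-96591578, minus strand), whose start region is printed above, was at 18.1, 19.3, 14.9, 11.8 and 16.1 CPM in CD and 11.2, 11.4, 11.1, 11.4 and 9.92 CPM in WD. WD + CHP held 11.2, 10.5, 13.2, 11.5 and 11.7 CPM. The CD libraries again lay above all WD libraries, with CD replicate 4 at 11.8 CPM and the highest WD library at 11.4 CPM close together. *Cyp2j9* fell by 0.54 ± 0.10 on the log2 scale (SE, n = 5 per group, edgeR adjusted p = 0.00357). The low member *Cyp2j8* had a log2 fold change of -0.68 ± 0.27 (edgeR adjusted p = 0.115). The abundant *Cyp2j5* and *Cyp2j6* had -0.02 ± 0.04 and -0.03 ± 0.04, and *Cyp2j13* 0.11 ± 0.11, and none of these passed. *Cyp2j11*, at 257 ± 17.0 CPM in CD and 236 ± 8.36 CPM in WD (SD, n = 5), had -0.12 ± 0.06 (unadjusted p = 0.0526, edgeR adjusted p = 0.206). The calls in this cluster were made in members with group means of 1.92 to 16.0 CPM, and *Cyp2j5* had 1740 ± 58.0 CPM in CD and 1711 ± 33.5 CPM in WD (SD, n = 5).

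*Cyp2e1* (chr7:140763739-140774987, plus strand) was at 1868, 2125, 1660, 1593 and 2150 CPM in CD and 1421, 1349, 1479, 1740 and 1515 CPM in WD. In WD + CHP it was at 1596, 1598, 1925, 2006 and 1727 CPM. WD replicate 4 lay above 2 CD libraries, and the WD + CHP libraries overlapped both other groups. *Cyp2e1* fell by 0.32 ± 0.09 on the log2 scale in WD vs. CD (SE, n = 5 per group, edgeR adjusted p = 0.0364). The call was lost in 7 of the 10 fits that left out 1 library (adjusted p up to 0.0975), in the replicate block and without the libraries with high *Alb*.

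*Cyp4f13*, of the Cyp4f subfamily that inactivates leukotriene B4 and hydroxylates fatty acids, was at 37.3 ± 1.75 CPM in CD and 33.8 ± 1.26 CPM in WD (SD, n = 5), and the libraries of the groups did not overlap. It fell by 0.14 ± 0.04 on the log2 scale (SE, n = 5 per group, edgeR adjusted p = 0.0364), and the call was lost in 8 of 10 fits that left out 1 library. *Cyp4f17* had -0.23 ± 0.09 and did not pass. Over the 6 Cyp4f members tested, the log2 fold changes ran from -0.29 to 0.50.

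*Cyp2c38* (chr19:39389556-39463075, minus strand), of the arachidonic acid oxidising Cyp2c subfamily, was at 0.0786, 0.207, 0.157, 0.155 and 0.178 CPM in CD and 0.501, 0.451, 0.406, 0.264 and 1.40 CPM in WD. These values rest on 3 to 8 counts per CD library and 10 to 54 per WD library, the 54 in replicate 5, the library with the most *Alb*. *Cyp2c38* rose by 1.94 ± 0.47 on the log2 scale (SE, n = 5 per group, edgeR adjusted p = 0.0153). It was at 1.37 (adjusted p = 0.0297) without WD replicate 5 and at 1.20 (adjusted p = 0.0674) without the 2 kidney libraries with high *Alb*. Over all alternatives its adjusted p ranged from 0.00154 to 0.0674. All 5 CD libraries lay below the filter's minimum of 10 counts, so the gene was tested only because other groups were higher, and it had no value under the filter that asked for 10 counts in every library. Its call is for this reason no support for the count of 5 members. The other 3 Cyp2c members tested also had positive log2 fold changes, from 0.25, and did not pass. Among them, *Cyp2c68* and *Cyp2c69* share 43.3% and 54.3% of their 50-base stretches with another gene, so their counts are uncertain.

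Members that did not pass included *Cyp2a5*, a coumarin hydroxylase, at 107 to 146 CPM in CD and 43.8 to 120 CPM in WD. Its log2 fold change was -0.62 ± 0.20 (unadjusted p = 0.00578, edgeR adjusted p = 0.0557), and 37.0% of its 50-base stretches occur in another gene, 28.1% in its neighbour *Cyp2a4*. *Cyp2b9* had 0.60 ± 0.20 (unadjusted p = 0.00769, edgeR adjusted p = 0.0651), at 0.524 to 1.24 CPM in CD and 0.923 to 1.40 CPM in WD. The aryl hydrocarbon receptor target *Cyp1a1* had 0.53 ± 0.22 (edgeR adjusted p = 0.139). Without CD replicate 4, 9 members passed, with *Cyp1a1*, *Cyp1b1*, *Cyp2b9* and *Cyp2u1* added to the 5. Without CD replicate 1, 2 or 5, or WD replicate 3, 3 passed, *Cyp2c38*, *Cyp2j7* and *Cyp2j9*, and without the libraries with high *Alb* 2 passed, *Cyp2j7* and *Cyp2j9*. The proximal tubule list, where most renal P450 is found, moved beside these members. Its sum was 33900 to 37500 CPM in CD, 30200 to 33900 CPM in WD and 33300 to 38100 CPM in WD + CHP, 3 of its 12 genes fell and 2 rose in WD vs. CD, and none was at 0 in any kidney library. Of 7 adipocyte markers tested, 2 fell, *Cfd* (log2 fold change of -2.47 ± 0.68) and *Pnpla2* (-0.45 ± 0.08), with sums of 183 to 239 CPM in CD, 155 to 168 CPM in WD and 143 to 181 CPM in WD + CHP, and *Adrb3*, *Lep* and *Retn* were at 0 in some libraries. Of 8 fibroblast and pericyte markers 2 rose, *Col1a1* and *Col1a2*, with sums of 129 to 178, 166 to 197 and 127 to 175 CPM in the same order. Of 6 markers of the thick ascending limb and distal tubule 3 rose, with overlapping sums of 4150 to 4670, 4200 to 4770 and 4100 to 4770 CPM, and no marker of the last 2 lists was at 0 in any kidney library. Of 11 hepatocyte markers tested 2 rose, *Ttr* (0.85 ± 0.19) and *Serpina1a* (0.87 ± 0.23), and 1 fell, *Fga* (-1.04 ± 0.30), with a median log2 fold change of 0.85 over the 11 and the sums given above. Of 4 skin and keratinocyte markers 1 rose, *Krt14*, with sums of 4.48 to 5.94 CPM in CD and 4.72 to 10.8 CPM in WD, and no marker of collecting duct, endothelium, podocyte or macrophage was called. Of 4 fast muscle fibre markers tested 1 rose, and the list summed to 18.0 to 19.7 CPM in CD, 22.7 to 29.4 CPM in WD and 22.4 to 28.9 CPM in WD + CHP, with 7 of its 12 genes at 0 in some kidney libraries. The part of these lists in the result was not tested.

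**Figure D3:**
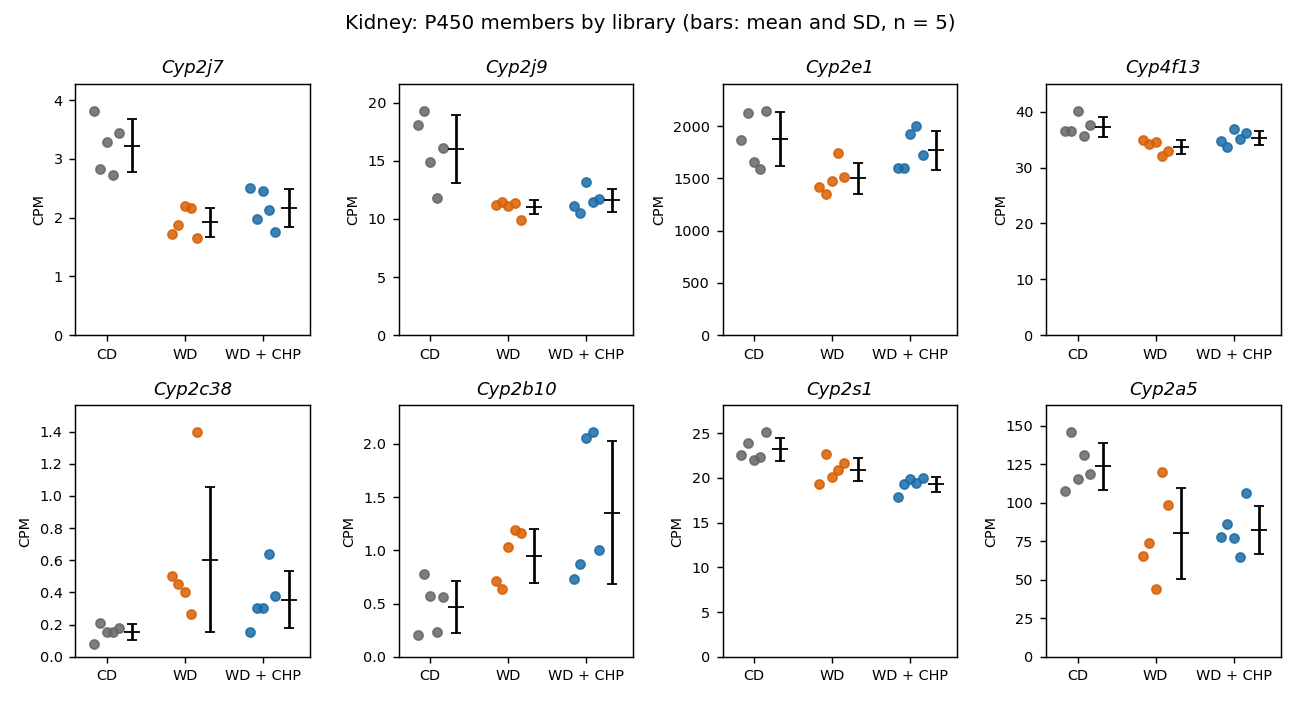
CPM in kidney (vertical axes, from 0) of 7 members called in a comparison and of Cyp2a5, 1 point per library, with mean and SD beside each group (n = 5). For Cyp2j7 all CD points lie above the WD and WD + CHP points, and for Cyp2c38 WD replicate 5 stands alone at 1.40 CPM.

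WD + CHP vs. WD in kidney compared the compound with water under the same diet. No member of 38 passed by edgeR, where 0.105% of all genes tested did, and none passed by DESeq2 or limma-voom. At an unadjusted p under 0.05 there were 6 members, against 1958 of the 17120 genes. *Cyp2d22* had the smallest p, with a log2 fold change of -0.29 ± 0.09 (unadjusted p = 0.00718, edgeR adjusted p = 0.242), at 24.0 to 31.1 CPM in WD and 21.7 to 25.3 CPM in WD + CHP. *Cyp2e1* had 0.24 ± 0.09 (edgeR adjusted p = 0.331). The log2 fold changes of the 7 Cyp2j members ran from 0.05 to 0.36, and those of the 4 Cyp2c members from -0.77 to -0.41, with no call in either. *Cyp2c68* and *Cyp2c69* among these share much of their sequence with other genes, as given above. This comparison and WD vs. CD share the WD libraries, so the values of both are given only side by side. WD + CHP replicates 3 and 4 were low in 3 members, picked on sight of the values and not by a test. *Cyp2c23*, a renal epoxygenase, was at 29.4 and 29.4 CPM there and at 41.0 to 69.0 CPM in the other 3, *Cyp2d26* at 116 and 112 against 148 to 205 CPM, and *Cyp2d9* at 134 and 126 against 179 to 223 CPM.

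**Figure D4:**
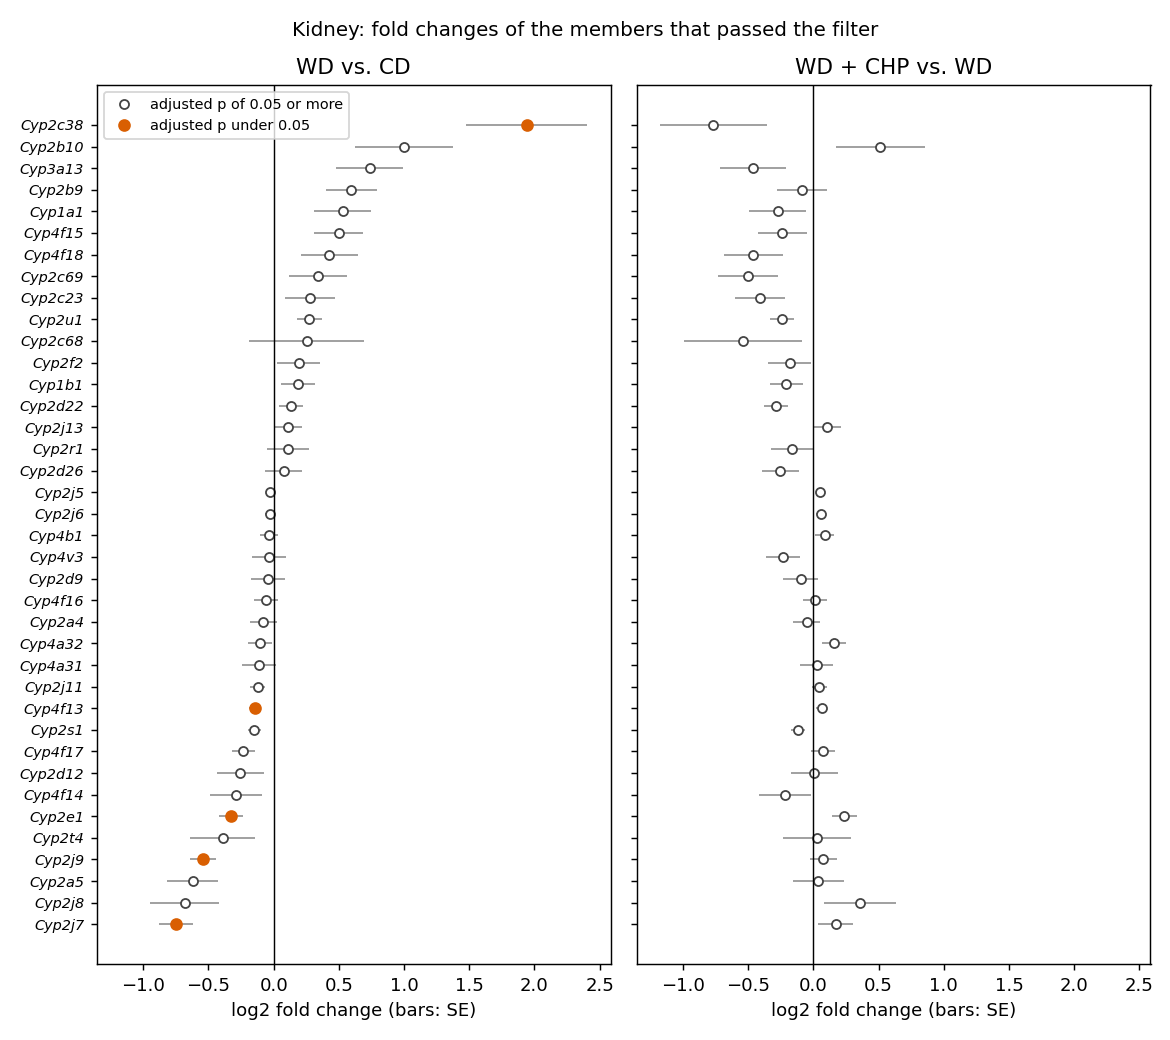
Log2 fold changes with SE (horizontal axes) of the 38 members tested in kidney, for WD vs. CD (left) and WD + CHP vs. WD (right), in the order of WD vs. CD. Filled points have an adjusted p under 0.05, 5 on the left and 0 on the right.

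In WD + CHP vs. CD, 4 of 38 kidney members passed (10.5%), where 12.1% of all genes tested did, 3 of them lower (5.84% of all genes were lower calls). *Cyp2b10* is counted among the 4, with a limit given below. *Cyp2j7* fell by 0.57 ± 0.13 and *Cyp2j9* by 0.47 ± 0.10 on the log2 scale (edgeR adjusted p = 0.00942 and 0.00806), against the same CD libraries as in WD vs. CD. *Cyp2s1*, an extrahepatic P450, was at 22.5, 23.9, 22.0, 22.3 and 25.1 CPM in CD, at 19.4 to 22.6 CPM in WD, and at 17.8, 19.3, 19.9, 19.5 and 19.9 CPM in WD + CHP. The CD and WD + CHP libraries did not overlap. *Cyp2s1* fell by 0.27 ± 0.05 on the log2 scale (SE, n = 5 per group, edgeR adjusted p = 0.00395) and had -0.15 ± 0.05 in WD vs. CD (adjusted p = 0.0758).

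*Cyp2b10*, the P450 induced through the receptor CAR, rose by 1.51 ± 0.37 on the log2 scale in WD + CHP vs. CD (SE, n = 5 per group, edgeR adjusted p = 0.0145). It was at 0.209, 0.778, 0.575, 0.232 and 0.560 CPM in CD, 0.712, 0.636, 1.03, 1.19 and 1.16 CPM in WD and 0.731, 0.876, 2.06, 2.11 and 1.00 CPM in WD + CHP. WD + CHP replicates 3 and 4 were the highest, 1 WD + CHP library overlapped CD, and the counts were 8 to 30 in CD and 28 to 76 in WD + CHP. CD replicates 1 and 4 lay below the filter's minimum of 10 counts, so CD alone would not have passed the gene. Like *Cyp2c38*, the gene had no value under the filter that asked for 10 counts in every library. Its call is for these reasons no support for the count of 4 members. In WD vs. CD it had 1.00 ± 0.38 (adjusted p = 0.106). *Cyp2c38* had 1.17 ± 0.50 in WD + CHP vs. CD (adjusted p = 0.140). The 4 calls held in all fits that left out 1 library and without the libraries with high *Alb*, but these fits do not lift the limit on *Cyp2b10*.

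Marker lists also moved in kidney WD + CHP vs. CD, with the sums of most lists given for WD vs. CD above. Of the proximal tubule list 2 genes rose and 1 fell, and of the thick ascending limb and distal tubule list 3 rose. Single genes were called among the collecting duct (*Slc4a1*, lower), endothelium (*Pecam1*, lower), adipocyte (*Pnpla2*, lower) and fibroblast and pericyte markers (*Col1a1*, higher). The collecting duct list summed to 267 to 363 CPM in CD and 252 to 298 CPM in WD + CHP, and the endothelium list to 341 to 410 and 337 to 378 CPM. Of the 11 hepatocyte markers, *Ttr* rose (0.86 ± 0.19) and *Fgg* fell (log2 fold change of -1.30 ± 0.34), with a median of -0.32. Of the muscle fibre lists *Pvalb*, also a distal tubule marker, and *Tnnc1* rose. The part of these lists in the calls of members was not tested.

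In gastrocnemius, WD vs. CD called 3 of 16 members (18.8%), all lower, where 8.63% of all 15419 genes tested passed and 3.96% were lower calls. The median log2 fold change of the 16 members was -0.21, against 0.00 for all genes. *Cyp2f2* and *Cyp2e1* fell most, and both are named below with every library. Without the libraries with high *Alb* their calls held, and that of *Cyp4f17* was lost.

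*Cyp2f2* (chr7:27119909-27133660, plus strand), known for the activation of naphthalene in airway cells, was at 2.28, 1.34, 1.25, 1.38 and 1.36 CPM in CD and 0.458, 0.468, 0.768, 0.535 and 0.325 CPM in WD. WD + CHP held 0.448, 0.763, 0.553, 0.333 and 0.458 CPM. All CD libraries lay above the 10 others, and the WD and WD + CHP libraries overlapped throughout. *Cyp2f2* fell by 1.57 ± 0.24 on the log2 scale in WD vs. CD (SE, n = 5 per group, edgeR adjusted p = 0.000843), from 64 to 118 counts per library to 17 to 42. The call held in all 19 alternatives, with log2 fold changes from -1.76 to -1.38.

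*Cyp2e1* was at 16.9, 15.1, 10.8, 12.9 and 13.5 CPM in CD and 4.59, 4.83, 12.5, 6.18 and 4.17 CPM in WD. In WD + CHP it was at 3.59, 4.92, 3.53, 2.14 and 2.81 CPM. WD replicate 3, the library with the most *Alb*, lay within the CD range, and the other 4 WD libraries lay below it. The log2 fold change of *Cyp2e1* in WD vs. CD was -1.10 ± 0.26 (SE, n = 5 per group, edgeR adjusted p = 0.0147), and it was -1.48 (adjusted p = 0.000378) without WD replicate 3.

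*Cyp4f17* (chr17:32506050-32530143, plus strand) was at 4.78, 4.33, 4.17, 4.13 and 4.05 CPM in CD, 3.05, 3.39, 2.87, 3.34 and 3.46 CPM in WD and 3.63, 2.65, 2.61, 3.08 and 3.68 CPM in WD + CHP. The CD libraries lay above all others. It fell by 0.41 ± 0.10 on the log2 scale in WD vs. CD (SE, n = 5 per group, edgeR adjusted p = 0.0169), and had -0.34 (adjusted p = 0.146) without the 3 gastrocnemius libraries with high *Alb*. Its relative *Cyp4f13* had -0.03 ± 0.07. The other members, *Cyp4b1* (0.11 ± 0.09) and *Cyp2j6* (0.28 ± 0.10, adjusted p = 0.0985) among them, did not pass.

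WD + CHP vs. WD called 0 of 16 gastrocnemius members by edgeR, DESeq2 or limma-voom, where 0.409% of all genes tested passed in edgeR. At an unadjusted p under 0.05 there were 5 members, against 1929 of the 15419 genes. *Cyp2e1* had a log2 fold change of -0.93 ± 0.28 (unadjusted p = 0.00390, edgeR adjusted p = 0.172), and -0.54 ± 0.19 (edgeR adjusted p = 0.273) without WD replicate 3, the library at 12.5 CPM. For *Cyp2u1* it was 0.29 ± 0.09 (unadjusted p = 0.00587, edgeR adjusted p = 0.196) and for *Cyp2f2* 0.00 ± 0.25.

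In WD + CHP vs. CD, 5 of 16 members passed (31.2%), all lower, where 9.40% of all genes tested passed and 4.55% were lower calls. *Cyp2e1* fell by 2.03 ± 0.27 and *Cyp2f2* by 1.57 ± 0.24 on the log2 scale (edgeR adjusted p = 0.000520 and 0.00117), and the *Cyp2e1* ranges of 10.8 to 16.9 and 2.14 to 4.92 CPM did not overlap. *Cyp4f17* fell by 0.46 ± 0.10 (adjusted p = 0.0104). *Cyp2d22* fell by 0.29 ± 0.09, from 14.5 to 18.2 CPM in CD to 11.9 to 15.9 CPM in WD + CHP (adjusted p = 0.0410). *Cyp2j9* fell by 0.57 ± 0.16, from 0.960 to 1.68 CPM to 0.668 to 1.08 CPM (adjusted p = 0.0376). The last 2 overlapped between the groups and were lost in 8 and 7 of 10 fits that left out 1 library (adjusted p up to 0.104 and 0.0957). Without CD replicate 1, 2 or 3, or WD + CHP replicate 1, 2, 3 or 5, and without the libraries with high *Alb*, the count was 3, *Cyp2e1*, *Cyp2f2* and *Cyp4f17*.

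Fat cell markers moved in the same muscle libraries. The 10 adipocyte markers summed to 657 to 790 CPM in CD, 767 to 920 CPM in WD and 660 to 893 CPM in WD + CHP. In WD vs. CD 4 of the 10 rose and 1 fell, in WD + CHP vs. WD 4 fell, in WD + CHP vs. CD 1 rose and 1 fell, and none was at 0 in any library. *Adipoq*, the adiponectin gene, was at 5.60 to 10.9, 14.6 to 17.2 and 5.13 to 9.52 CPM in CD, WD and WD + CHP, so that WD stood alone. *Cfd*, the adipsin gene of fat cells, was at 26.3 to 53.0, 9.63 to 18.4 and 8.24 to 16.6 CPM, with CD above both other groups, as for *Cyp2f2*. The 12 fast muscle fibre markers summed to 221000 to 261000 CPM in CD, 196000 to 226000 CPM in WD and 202000 to 235000 CPM in WD + CHP. Of these, 2 fell in WD vs. CD, *Ckm* and *Myl1*, and none was called in WD + CHP vs. CD. The 8 fibroblast and pericyte markers summed to 660 to 1160, 661 to 1140 and 620 to 878 CPM in the same order, with no call in WD vs. CD and 1 in WD + CHP vs. CD, *Dcn*, which fell. No marker of the last 2 lists was at 0 in any gastrocnemius library. The part of these 3 lists in the results of the called members was not tested.

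**Figure D5:**
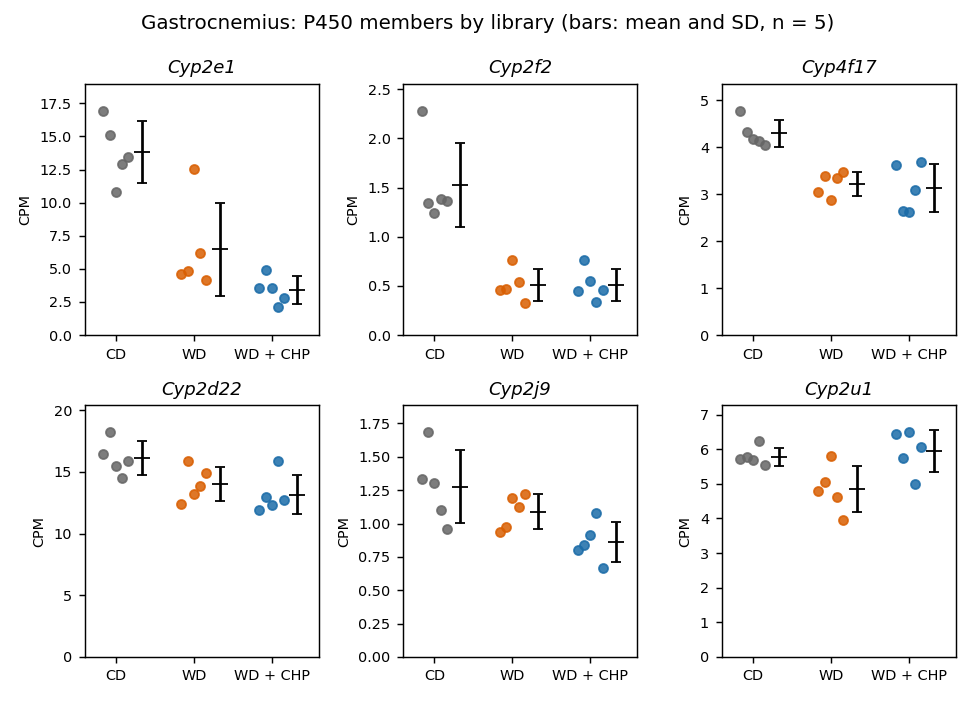
CPM in gastrocnemius (vertical axes, from 0) of 5 members called in a comparison and of Cyp2u1, 1 point per library, with mean and SD beside each group (n = 5). For Cyp2f2 and Cyp4f17 all CD points lie above the others, and the WD point of Cyp2e1 at 12.5 CPM is replicate 3.

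Differences between the tissues were tested as an interaction in 1 fit of all 30 libraries over 13934 genes, kidney minus gastrocnemius, with the libraries taken as independent. For WD vs. CD 3 of the 15 members passed, where 6.06% of all genes tested did. *Cyp2f2* had a difference of 1.77 ± 0.29 on the log2 scale (edgeR adjusted p = 0.000299), with a kidney log2 fold change of 0.19 ± 0.16 beside the fall in muscle. *Cyp2u1* had a difference of 0.53 ± 0.13 (adjusted p = 0.0144), with 0.27 ± 0.09 in kidney and -0.25 ± 0.09 in gastrocnemius, neither of which passed within its tissue. *Cyp2j6* had -0.30 ± 0.09 (adjusted p = 0.0477), a call lost in 16 of 20 fits that left out 1 library. *Cyp2e1*, lower with WD in both tissues, had 0.77 ± 0.28 and did not pass (adjusted p = 0.0964).

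For WD + CHP vs. WD 1 of 15 members passed, where 0.660% of all genes tested did. This contrast and that of WD vs. CD share the WD libraries of both tissues with opposite sign, so their values are not independent. *Cyp2u1* had a difference of -0.55 ± 0.13 (edgeR adjusted p = 0.0498), and the call was lost in 16 of 20 fits that left out 1 library, with adjusted p from 0.0159 to 0.144 over all alternatives. It was at 5.46 to 7.10 CPM in kidney WD and 4.52 to 5.55 CPM in kidney WD + CHP, and at 3.96 to 5.79 CPM in gastrocnemius WD and 4.98 to 6.49 CPM in gastrocnemius WD + CHP. *Cyp2e1* had 1.16 ± 0.29 (adjusted p = 0.0579), and 0.77 ± 0.21 (edgeR adjusted p = 0.0792) without gastrocnemius WD replicate 3.

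The genes that work with P450 were counted by list, beside the shares of all genes called in the same comparisons, which were 9.65% in kidney and 8.63% in gastrocnemius for WD vs. CD, 12.1% and 9.40% for WD + CHP vs. CD, and 0.105% and 0.409% for WD + CHP vs. WD. A single call in a list of about 10 genes is near the first 4 of these shares, and the lists were not tested against other genes. Of 7 electron donors tested, none was called in WD vs. CD in either tissue, and *Pgrmc1*, a haem-binding partner of P450, fell by 0.15 ± 0.04 on the log2 scale in kidney WD + CHP vs. CD (edgeR adjusted p = 0.0266). Of 10 xenobiotic sensors and partners tested in kidney, none was called in WD vs. CD or WD + CHP vs. WD, and 1 was called in WD + CHP vs. CD. There *Nr1i2*, which encodes the drug sensor PXR, fell by 0.44 ± 0.10 (edgeR adjusted p = 0.00983). Of 9 tested in gastrocnemius, 1 was called in WD vs. CD, 1 in WD + CHP vs. WD and 2 in WD + CHP vs. CD. *Cebpa*, which encodes a C/EBP factor, rose by 0.49 ± 0.13 in WD vs. CD and fell by 0.68 ± 0.13 in WD + CHP vs. WD (adjusted p = 0.0290 and 0.0304), while *Ppara*, the fatty acid receptor gene, rose by 0.57 ± 0.12 and *Arnt*, the partner of the aryl hydrocarbon receptor, fell by 0.23 ± 0.06 in WD + CHP vs. CD. *Cebpa* is also expressed in fat cells, and in the same libraries 4 of the 10 adipocyte markers rose in WD vs. CD and 4 fell in WD + CHP vs. WD, with *Adipoq* at the levels given above. The part of fat cells in the *Cebpa* values was not tested.

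Among 12 genes of haem synthesis and breakdown, 1 rose in kidney and 2 in gastrocnemius in WD vs. CD. *Alad* of haem synthesis rose by 0.51 ± 0.08 in gastrocnemius (edgeR adjusted p = 0.000700). In kidney WD + CHP vs. CD 2 rose and 1 fell, with *Alas1*, the rate-limiting enzyme of haem synthesis, higher by 0.47 ± 0.14 and *Hmox1*, the haem oxygenase, by 0.56 ± 0.09 (adjusted p = 0.0369 and 0.00114). Of 12 eicosanoid and epoxide genes tested, 3 rose in kidney in WD vs. CD, among them *Ptgs2*, the inducible cyclooxygenase, by 1.22 ± 0.29 (adjusted p = 0.0149). In gastrocnemius 1 rose, *Ephx2*, the soluble hydrolase of epoxyeicosatrienoic acids, by 0.81 ± 0.11 (adjusted p = 0.000297). *Ephx2* was also higher in WD + CHP vs. CD in both tissues, by 0.83 ± 0.11 in gastrocnemius and 0.25 ± 0.08 in kidney (adjusted p = 0.000426 and 0.0444).

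Of 25 conjugation enzymes tested in kidney, 4 rose and 4 fell in WD vs. CD, with *Ugt2b37* higher by 0.72 ± 0.18 and *Ugt3a1* lower, at -0.59 ± 0.05 (edgeR adjusted p = 0.0162 and 5.38e-06). Of 11 in gastrocnemius none was called. Of the other oxidising enzymes, 2 of 19 rose and 1 fell in kidney, and 2 of 17 rose in gastrocnemius, *Aldh1a1*, a retinaldehyde dehydrogenase, rising in both (0.72 ± 0.17 and 0.42 ± 0.05). The aryl hydrocarbon receptor target list, which holds 3 members, had no call in any of the 6 comparisons, among 6 genes tested in kidney and 5 in gastrocnemius. In WD + CHP vs. WD *Cebpa* was the only call in any of these lists, in either tissue.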

How the data were processed

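RNA-seq of 15 kidney and 15 gastrocnemius libraries was analysed. The authors enriched polyA RNA, used BGISEQ sequencing, filtered reads with SOAPnuke and aligned them with STAR 2.7.3a (GRCm38, mm10, per the submitters' processing notes). Unnormalised counts of reads on each gene were deposited and used as they stood. The counting tool, annotation and strand setting are not given in the sources used here. In R 4.3.3, edgeR 4.0.16 kept genes by filterByExpr (minimum count 10), scaled libraries by TMM and fitted the 3 groups of a tissue in 1 quasi-likelihood model, with two-sided p-values adjusted after Benjamini-Hochberg over the genes kept, and 0.05 as the threshold. SE is the absolute log2 fold change over the square root of F. CPM used the TMM-scaled totals and exon lengths were those of GENCODE M21. Python 3.11.15 and matplotlib 3.10.9 made the plots. The fits were tested on simulated counts. Columns were assigned through the labels, with 0 left over, and libraries of a group differed by more than counting error.

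The members and gene lists were chosen with earlier results of these data known. Named members were those called in any comparison, the 8 highest per tissue in CPM per kb, and uncalled members with an unadjusted p under 0.01, with up to 3 called genes per list. The alternatives were DESeq2 1.42.0, limma-voom (limma 3.58.1), 2 other scalings, 2 other filters, a replicate block, fits of only the groups compared, and each library left out in turn. One item of the gene lists is not reported or counted here.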

Additional observations from a re-analysis of the deposited data

Results flagged for a closer look

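In 102 groups of 5 libraries of the named members and of the summed members that failed the filter, 13 had a library far from the other 4 by Dixon's criterion (a gap over 0.71 of the range), which chance meets in about 1 group in 20. In kidney, *Cyp2b9* was at 0.923 CPM in WD replicate 4, against 1.33 to 1.40 CPM in the others. *Cyp2c38* was at 1.40 CPM in WD replicate 5 (others 0.264 to 0.501), *Cyp2j9* at 9.92 CPM in the same library (others 11.1 to 11.4) and *Cyp2d22* at 24.0 CPM in WD replicate 3 (others 29.3 to 31.1). *Cyp2f2* in CD replicate 1 stood above the other CD libraries in both tissues, at 4.90 CPM in kidney (others 3.17 to 3.35) and 2.28 CPM in gastrocnemius (others 1.25 to 1.38). In gastrocnemius, *Cyp2e1* was at 12.5 CPM in WD replicate 3 (others 4.17 to 6.18) and *Cyp2d22* at 15.9 CPM in WD + CHP replicate 4 (others 11.9 to 12.9).

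The summed members that failed the filter stood apart in 5 of the 6 groups. The sums were 5.60 CPM in kidney CD replicate 1, 45.0 CPM in kidney WD replicate 5, 3.49 CPM in kidney WD + CHP replicate 4, 3.87 CPM in gastrocnemius CD replicate 1 and 11.1 CPM in gastrocnemius WD replicate 3, against at most 2.06 CPM in any other library of these groups.

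By the interaction test, the effect of the diet differed between kidney and gastrocnemius for *Cyp2f2* (1.77 on the log2 scale), *Cyp2u1* (0.53) and *Cyp2j6* (-0.30), and the effect of CHP for *Cyp2u1* (-0.55, adjusted p = 0.0498). The calls of *Cyp2f2* and *Cyp2u1* for the diet held in all 29 alternatives, whereas that of *Cyp2j6* was lost in 20 of 29 and that of *Cyp2u1* for CHP in 21 of 29. Both contrasts use the same WD libraries, with opposite sign.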

How the results depend on the processing

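The 8 counts of called members include those of WD + CHP vs. WD within kidney and within gastrocnemius. Both were 0, and an alternative of 0 was taken there as the same. Across the 8 counts, 137 of 172 alternative counts were within 1.5 times the reported one, and no log2 fold change reversed among 437 alternative values of the 21 calls. Of these values 351 kept the call and 86 lost it. Leaving out 1 library gave 3 to 9 members for kidney WD vs. CD, 4 to 5 for kidney WD + CHP vs. CD, 3 to 4 for gastrocnemius WD vs. CD, 3 to 5 for gastrocnemius WD + CHP vs. CD, 2 to 3 for the tissue difference of WD vs. CD and 0 to 1 for that of WD + CHP vs. WD. In gastrocnemius WD + CHP vs. CD the count was 3 with total count scaling, with no filter and without the libraries with high *Alb*, and in kidney WD vs. CD it was 2 without those libraries. For the tissue difference of WD + CHP vs. WD the count was 0 with limma-voom, DESeq2 size factors, total count scaling, no filter and only the groups compared. The cause was not tested. In the replicate block, the count for kidney WD vs. CD was 7 and for gastrocnemius WD + CHP vs. CD 4. Within a tissue, the deviations of same-numbered libraries of different groups correlated at -0.13 to 0.15. Kidney and gastrocnemius libraries of the same number were not compared, so whether they share an animal was not tested. Members under about 1 CPM, such as *Cyp2c38* and *Cyp2b10*, rest on few counts and carry wide errors.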
